A study of Mus musculus with 16 samples.

Results

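Sorted bone marrow LSK cells labelled WT were compared between Day2 and Day0. The members were chosen by label: 3 libraries titled Day2_WT and 2 titled Day0_WT, which are 5 of the 16 libraries of the series. Every gene of the deposited count table was considered, and 19162 of 45706 gene IDs had enough reads to be tested. LSK cells are mouse marrow cells that lack the surface proteins of mature blood lineages and carry Sca-1 and Kit. The series concerns GATA2 haploinsufficiency, in which 1 copy of the gene is lost, and according to its design text small numbers of LSK cells were transplanted into WT recipients after lethal irradiation. How the cells spent the time from Day0 to Day2, and the age and strain of the animals, are not stated in the labels. Separate animals per library are not stated either, so the p-values measure the spread between these libraries, part of which may be technical. The Day0_WT pair were of opposite sex by their sex-linked genes (replicate 2 female, the other 4 WT libraries male) and so came from different animals. A matching set of 5 LSK libraries labelled Gata2 (3 of Day0, 2 of Day2) entered the same fit. Its libraries add to the estimate of spread behind every WT test, and its changes are given only beside those of WT.

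LSK cells contain the long-lived stem cells and the multipotent progenitors from which all blood cells descend. In undisturbed marrow most stem cells rest outside the cell cycle, hold their protein synthesis low and rely on transcription factors such as HLF, the HOXA proteins and GATA2. Cells pushed into division raise glucose use, lipid and amino acid synthesis and protein folding capacity, programmes run by HIF1A, SREBP2, ATF4, XBP1 and MYC.

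Read depth was 19.6 M and 47.9 M counts in the Day0_WT libraries and between 51.8 M and 54.8 M counts in the Day2_WT libraries. Day0_WT replicate 1 was the shallowest and stood apart: its correlation with replicate 2 was 0.847 across genes, against 0.982 or more between libraries within every other LSK group. Counts on repeat-rich genes made up 9.33 and 6.51% of the Day0_WT libraries and 2.8 to 4.39% of the Day2_WT libraries. Which of 2 library kits each sample received is not stated, so kit and time cannot be told apart. Genes of cells that the LSK gate should remove were read at both times. The summed level of 15 B cell and plasma cell genes was 971 and 1460 CPM at Day0 and 154 to 237 CPM at Day2, and that of 18 T cell and NK cell genes was 217 and 267 against 132 to 168 CPM. Summed levels of 14 late neutrophil granule genes were 125 and 217 CPM at Day0 and 1150 to 2190 CPM at Day2. Of the defining markers, Ms4a1, Cd3e, Cd8a and Slc4a1 had no count in any Day2_WT library, and at Day0 Ms4a1 was at 0 and 0.392, Cd3e at 2.18 and 2.51, Cd8a at 0 and 1.61 and Slc4a1 at 1.4 and 2.57 CPM. In bulk RNA, fewer cells of a type and less RNA per cell cannot be told apart, and the part of these cells, of depth and of the repeat-rich reads in the changes below was not tested. Levels are in CPM, counts scaled to a common library size after TMM correction for composition.

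Between Day0 and Day2, 2286 genes rose and 3434 fell in WT (edgeR quasi-likelihood test, adjusted p under 0.05), which is 11.9% and 17.9% of the genes tested. The change was over 2-fold for 1096 of the genes that rose and for 2960 of those that fell. With the 5 WT libraries fitted alone, without the spread of the Gata2-labelled libraries, 490 rose and 709 fell. The median log2 fold change was -0.11 over all genes and 0.01 over protein-coding genes. Upper quartile scaling moved the median of all genes to -0.26 and the share of higher genes among those called from 40% to 28.7%, and without the low count filter that share was 21.9%. Leaving out Day2_WT replicate 2 left 1274 higher and 1917 lower genes, and leaving out Day2_WT replicate 3 left 1283 and 2055. Leaving out Day0_WT replicate 2 gave 5771 and 6615, a fit in which the single remaining Day0_WT library was assumed to vary like the other groups. Without Day0_WT replicate 1 there were 2058 higher and 2535 lower genes, among them 1570 and 1927 of those called with all libraries.

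**Figure D1:**
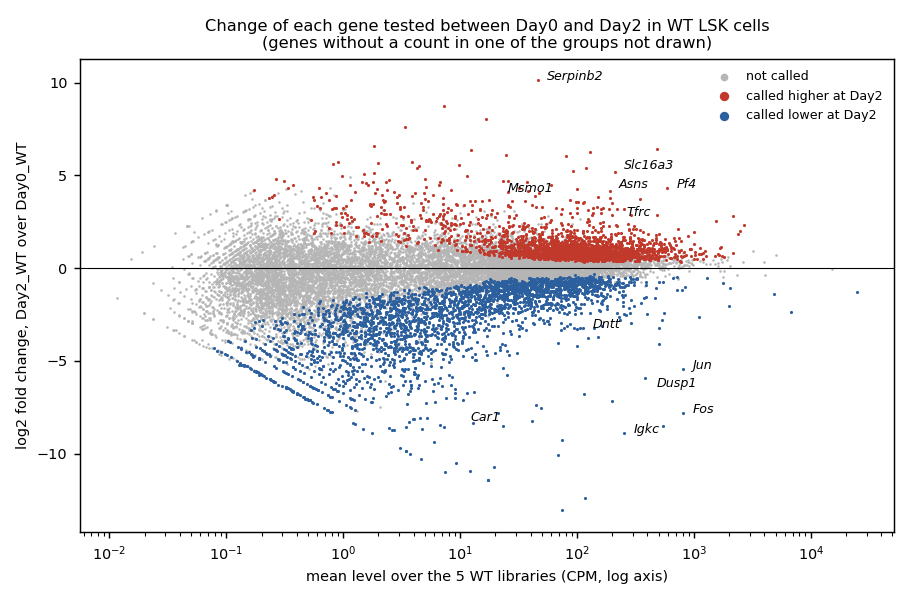
Log2 fold change at Day2 over Day0 in WT (vertical axis) against the mean level over the WT libraries in CPM (horizontal log axis). Each point is 1 gene, with called genes coloured by direction. Genes without any count in the Day0_WT libraries or in the Day2_WT libraries are not drawn. Of 19162 genes, 2286 were called higher and 3434 lower, and the lower calls reach further from 0 at low mean levels.

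The markers that define the sort remained readable at both times. Kit, the receptor for stem cell factor, was at 595 and 472 CPM in the Day0_WT libraries and at 654, 571 and 545 CPM at Day2. Those ranges overlap, and Kit did not pass the test (log2 fold change 0.15, SE 0.2, edgeR adjusted p = 0.612). Ly6a, which encodes Sca-1, was at 56.3 and 62.2 CPM at Day0 and at 22.6, 28.9 and 31.4 CPM at Day2. All Day2 libraries lay below both Day0 libraries, and Ly6a fell by 1.1 on the log2 scale (SE 0.23, edgeR adjusted p = 0.0083). Flt3, the receptor that marks multipotent progenitors with lymphoid potential, stood at 556 and 447 CPM at Day0 and at 68.6, 99.4 and 101 CPM at Day2. Its groups did not overlap, and the fall was 2.48 on the log2 scale (SE 0.19, edgeR adjusted p = 0.000105). Procr, which encodes the stem cell marker EPCR, had 20.4 and 24 CPM at Day0 and 3.98, 6.16 and 3.39 CPM at Day2 (log2 fold change -2.3, SE 0.39, edgeR adjusted p = 0.00333). Itga2b, the CD41 integrin chain of megakaryocytes and early progenitors, moved the other way, from 146 and 244 CPM to 740, 739 and 637 CPM. It was the single member of the 16 surface markers called higher with all libraries (log2 fold change 1.85, SE 0.22, edgeR adjusted p = 0.000744).

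In that list 1 member rose and 6 fell, and the median log2 fold change was -0.06, against -0.11 for all genes. The remaining calls were Fgd5, Esam and Cd93, which fell by 1.61, 0.81 and 0.44 on the log2 scale. Esam was no longer called without Day2_WT replicate 2, and Cd93 was called in 1 of the 5 fits that left out a WT library, the one without Day0_WT replicate 2. Cd34, Cd48, Eng, Tek, Slamf1 and Ctnnal1 were among those that did not pass the test. Vwf, a marker of platelet-biased stem cells, was at 0.774 and 50.5 CPM at Day0 and at 164, 154 and 82.6 CPM at Day2 (edgeR adjusted p = 0.12). All Day2 libraries were above both Day0 libraries, which were far from each other. The rise of Vwf was called in 3 of the alternative settings and not in 13. Its log2 fold change was 1.37 without Day0_WT replicate 1 and 7.44 without Day0_WT replicate 2. Without Day0_WT replicate 2 the list had 4 rises.

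Among 20 transcription factors and other genes of stem cells, 10 fell and 2 rose, with a median log2 fold change of -1.32. The second rise, that of Gfi1b, was not called when any 1 of the Day2_WT libraries was left out. Hoxa9, a homeobox factor that sustains stem cell self-renewal, was at 125 and 109 CPM at Day0 and at 38.7, 39.4 and 41.7 CPM at Day2. It fell by 1.55 on the log2 scale (SE 0.14, edgeR adjusted p = 0.000184), with no overlap between the groups. Hlf, a factor largely restricted to stem cells within blood, fell from 243 and 193 CPM to 108, 97.2 and 91.1 CPM (log2 fold change -1.14, SE 0.16, edgeR adjusted p = 0.00168). Hoxa5, Hoxb4 and Mllt3 fell as well, by 2.03, 2.62 and 1.66 on the log2 scale. Mycn, a MYC family member, rose from 75.8 and 84.2 CPM to 233, 235 and 206 CPM (log2 fold change 1.49, SE 0.16, edgeR adjusted p = 0.000465). Levels of Meis1 were 215 and 237 CPM at Day0 and 217, 165 and 151 CPM at Day2, and those of Mecom 18.4 and 39.2 against 39.4, 23.5 and 23.4 CPM, and neither passed the test. So the HOXA genes and Hlf were lower at Day2 while no change was called in Meis1, a usual partner of HOXA9. Hoxb4 was at a log2 fold change of -1.89 without Day0_WT replicate 1.

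GATA2 works with a set of blood transcription factors, of which 12 were examined. In it 5 fell (3 without Day2_WT replicate 2), 1 rose and the median log2 fold change was -0.46. Gata2 itself was at 446 and 329 CPM at Day0 and at 291, 262 and 259 CPM at Day2. All Day2 libraries were below both Day0 libraries, but the difference did not pass the test (log2 fold change -0.52, SE 0.19, edgeR adjusted p = 0.0705). That outcome depended on the setting, since the fall of Gata2 was called in 7 of the alternative settings and not in 9. The log2 fold change of Gata2 was -0.31 without Day0_WT replicate 1 and -0.71 without Day0_WT replicate 2. Zfpm1, which encodes the GATA cofactor FOG1, dropped from 166 and 212 CPM to 48.7, 25.1 and 27.8 CPM (log2 fold change -2.48, SE 0.43, edgeR adjusted p = 0.0039). Lyl1, a basic helix-loop-helix factor, went from 78.9 and 44.3 CPM to 19.9, 21.6 and 19.1 CPM (log2 fold change -1.61, SE 0.32, edgeR adjusted p = 0.00672). Fli1, an ETS factor of megakaryocytes and stem cells, was the member that rose, from 97.6 and 133 CPM to 221, 198 and 175 CPM (log2 fold change 0.78, SE 0.16, edgeR adjusted p = 0.00895). The falls of Ldb1, Erg and Lmo2 were smaller, at 0.47, 0.9 and 0.45 on the log2 scale. Erg was not called without Day2_WT replicate 2, and Lmo2 without that library or without Day0_WT replicate 2. Gata1, Tal1, Runx1, Spi1 and Gfi1 did not pass the test.

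Immediate early genes, which cells switch on within minutes of stimulation and which include the AP-1 factors FOS and JUN, were high at Day0 and low at Day2. In the list of 26, 18 fell and 1 rose (4 without Day0_WT replicate 2), with a median log2 fold change of -2.7. Their summed level was 10100 and 14200 CPM in the Day0_WT libraries and 1340 to 1440 CPM in the Day2_WT libraries. Fos stood at 1580 and 2460 CPM at Day0 and at 7.41, 9.4 and 9.94 CPM at Day2, a log2 fold change of -7.83 (SE 0.42, edgeR adjusted p = 2.17e-05). Jun went from 1430 and 2460 CPM to 51.5, 42.3 and 41.8 CPM (log2 fold change -5.43, SE 0.28, edgeR adjusted p = 1.74e-05). The groups of these AP-1 subunits were far apart, with no Day2 library near a Day0 library. Dusp1, a phosphatase that turns off MAP kinases, fell from 787 and 1080 CPM to 16.1, 16.2 and 13.9 CPM (log2 fold change -5.92, SE 0.26, edgeR adjusted p = 7.6e-06). Zfp36, an RNA-binding protein that destabilises cytokine messages, declined from 914 and 1380 CPM to 68.1, 69.7 and 60.9 CPM (log2 fold change -4.11, SE 0.23, edgeR adjusted p = 2.41e-05). Nr4a1, a nuclear receptor linked to stem cell quiescence, fell by 4.2 on the log2 scale, and Egr1, another factor linked to stem cell rest, by 2.81. Fosl1, the AP-1 subunit FRA1, was the exception. Its levels were 1.16 and 1.74 CPM at Day0 and 9.56, 7.17 and 8.27 CPM at Day2 (log2 fold change 2.51, SE 0.4, edgeR adjusted p = 0.00259). Ier3, Nr4a3, Egr2, Egr3, Atf3, Dusp5 and Dusp6 did not pass the test.

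Of 17 genes of quiescence and cell cycle brakes, 6 fell and 3 rose, beside 17.9% and 11.9% of all genes. The strongest falls were in genes that also belong to the immediate early list. Btg2, an antiproliferative gene, fell from 350 and 324 CPM to 76.9, 72.6 and 71.3 CPM (log2 fold change -2.19, SE 0.17, edgeR adjusted p = 0.000107). Klf2 and Klf6, zinc finger factors, fell by 3.12 and 2.62 on the log2 scale. Cdkn1a, which encodes the kinase inhibitor p21, rose from 41.2 and 42.3 CPM to 111, 111 and 131 CPM (log2 fold change 1.5, SE 0.21, edgeR adjusted p = 0.00158). Cdkn1c, which encodes p57, was at 1.5 and 13.1 CPM at Day0 and at 4.19, 4.13 and 6.39 CPM at Day2, a range within that of Day0. The higher count was 1 without Day2_WT replicate 1, 2 or 3 or Day0_WT replicate 1, 6 without Day0_WT replicate 2, and 1 under upper quartile scaling.

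The chemokine genes Ccl4 and Ccl3 were among the called falls in a list of 20 inflammatory NF-kB genes, of which 4 fell and 1 rose (median log2 fold change -0.41). Among all genes 17.9% fell and 11.9% rose, so the count of falls in this list was near that share. Ccl4 was at 160 and 155 CPM at Day0 and at 7.52, 9.26 and 11.9 CPM at Day2 (log2 fold change -4.04, SE 0.27, edgeR adjusted p = 5.58e-05). Nfkbiz, an atypical IkB protein, fell from 180 and 126 CPM to 23.9, 17.2 and 17.5 CPM (log2 fold change -2.97, SE 0.26, edgeR adjusted p = 0.000169). The subunit genes Nfkb1, Nfkb2, Rel and Relb and the feedback genes Nfkbia and Tnfaip3 did not pass the test. Il1b, the member called higher, was at 2.22 and 4.17 CPM at Day0 and 15.1, 21.9 and 17.3 CPM at Day2, and its call was kept in 1 of the 5 fits that left out a WT library, the one without Day0_WT replicate 2. That fit gave 5 higher and 9 lower members, and the others 0 higher.

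Interferon-induced genes were lower at Day2. Type I interferons signal through a complex that includes STAT2 and IRF9 and binds the interferon response element of antiviral genes. Of 22 members of that response, 19 fell and 0 rose (median log2 fold change -1.53), and the summed level dropped from 947 and 891 CPM to 321, 338 and 350 CPM. Oas2, a sensor of double-stranded RNA, was at 82.9 and 40 CPM at Day0 and at 1.33, 0.972 and 1.08 CPM at Day2 (log2 fold change -5.76, SE 0.57, edgeR adjusted p = 0.000328). Irf7, the factor that amplifies interferon production, fell from 71.7 and 65.4 CPM to 3.79, 8.65 and 8.71 CPM (log2 fold change -3.28, SE 0.37, edgeR adjusted p = 0.000547). Isg15, a ubiquitin-like modifier, fell from 12.1 and 17.3 CPM to 3.05, 3.61 and 4.23 CPM (log2 fold change -2.02, SE 0.32, edgeR adjusted p = 0.00261). In each of these genes every Day2 library was below both Day0 libraries. Ifit1, an inhibitor of viral translation, had 49.3 and 13.6 CPM at Day0 and 0.685, 2.31 and 0.779 CPM at Day2 (log2 fold change -4.64, SE 0.88, edgeR adjusted p = 0.00583). Irf9, which encodes a part of that complex, fell by 1.23 on the log2 scale. Mx1, Ifit2 and Rsad2 did not pass the test, and the Day2 levels of Ifit2 (22.3, 24 and 15.9 CPM) overlapped those of Day0 (15.8 and 23.3 CPM). The log2 fold changes of Oas2 and Ifit1 were -5.17 and -3.47 without Day0_WT replicate 1, and that of Ifit1 was -5.29 without Day0_WT replicate 2 and -5.42 without Day2_WT replicate 2.

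In a list of 15, made of interferon-inducible GTPases and the factor Irf1, 8 fell and 0 rose (median log2 fold change -1.07). Irgm1, an immunity-related GTPase that protects stem cells during infection, fell from 113 and 115 CPM to 50.9, 57.1 and 52.6 CPM (log2 fold change -1.09, SE 0.12, edgeR adjusted p = 0.000561). Iigp1 fell by 3.81, Gbp2 by 2.13 (1.51 without Day0_WT replicate 1) and Igtp by 1.07 on the log2 scale. Tgtp1 and Tgtp2 also fell, but they are near-identical copies whose reads may be shared. Gbp3 to Gbp9, guanylate-binding proteins like Gbp2, did not pass the test. Antigen presentation genes showed 6 falls and 0 rises in 16 (10 falls under upper quartile scaling). H2-K1, a class I heavy chain, went from 2190 and 2630 CPM to 1170, 1340 and 1620 CPM (log2 fold change -0.81, SE 0.15, edgeR adjusted p = 0.00503). Cd74, the class II chaperone, went from 258 and 200 CPM to 89.9, 108 and 124 CPM (log2 fold change -1.09, SE 0.18, edgeR adjusted p = 0.00307).

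Promoters of 5 interferon-induced genes that fell are shown because the interferon element was common in their lists. Of the windows from 250 bases before to 50 bases after the start (RefSeq, GRCm38.p6), 9 of 16 in the type I list and 9 of 10 in the GTPase list held the interferon element, GAAA then NN then GAAA, on either strand, against 3.15% of all 12435 windows. The windows that held it include those of Rsad2, Gbp3, Gbp5 and Gbp7, which did not pass the test. The stretches below run 5′ to 3′ on the gene's strand, with matches in capitals. They lie at chr19:34640755-34640824 (plus strand) for Ifit1, chr4:156200857-156200926 (minus) for Isg15, chr11:48871421-48871480 (minus) for Irgm1, chr11:58199492-58199555 (plus) for Igtp and chr3:142620574-142620643 (plus) for Gbp2.
Ifit1: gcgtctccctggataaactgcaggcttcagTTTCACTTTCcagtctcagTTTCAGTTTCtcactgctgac
Isg15: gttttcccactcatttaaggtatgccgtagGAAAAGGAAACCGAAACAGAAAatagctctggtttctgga
Irgm1: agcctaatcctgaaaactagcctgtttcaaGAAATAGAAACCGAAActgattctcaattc
Igtp: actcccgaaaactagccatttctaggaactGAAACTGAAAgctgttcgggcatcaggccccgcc
Gbp2: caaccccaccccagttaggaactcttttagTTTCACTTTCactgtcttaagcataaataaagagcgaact
In Isg15 and Irgm1 the capitals hold overlapping matches. The first match begins 104 bases before the start in Ifit1, 78 in Isg15, 59 in Gbp2, 34 in Igtp and 30 in Irgm1.

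All 22 genes of cholesterol synthesis and uptake rose, with a median log2 fold change of 2.34, against 11.9% of all genes called higher. Their summed level was 604 and 812 CPM at Day0 and 2930, 2900 and 2830 CPM at Day2. These genes are targets of SREBP2, a membrane-bound factor released when sterols run low. Hmgcs1, which condenses acetyl groups at the entry of the pathway, was at 5.56 and 28.2 CPM at Day0 and at 252, 235 and 231 CPM at Day2 (log2 fold change 3.81, SE 0.57, edgeR adjusted p = 0.00209). Sqle, a control point of the pathway, climbed from 10.5 and 35.7 CPM to 230, 237 and 227 CPM (log2 fold change 3.31, SE 0.43, edgeR adjusted p = 0.00104). For Msmo1 and Cyp51, which act later in the pathway, the libraries of a group lay close to each other. Msmo1, which removes methyl groups from sterols, was at 13.2 and 13.9 CPM at Day0 and at 160, 166 and 161 CPM at Day2 (log2 fold change 3.58, SE 0.16, edgeR adjusted p = 7.6e-06). Cyp51 increased from 30.9 and 26.1 CPM to 188, 223 and 209 CPM (log2 fold change 2.86, SE 0.17, edgeR adjusted p = 2.67e-05). Srebf2, which encodes SREBP2, had the smallest rise of the list, from 210 and 332 CPM to 543, 487 and 522 CPM (log2 fold change 0.93, SE 0.18, edgeR adjusted p = 0.00682). Insig1, which retains SREBP2 in the endoplasmic reticulum, was at 0.725 and 28 CPM at Day0 and at 114, 112 and 109 CPM at Day2, and its call was lost when any 1 of the Day2_WT libraries was left out. Over the fits that left out a WT library, 19 to 22 members were called higher and 0 lower. The log2 fold changes of Hmgcs1 and Sqle were 3.06 and 2.66 when Day0_WT replicate 1 was left out, against 5.44 and 4.47 without Day0_WT replicate 2.

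A single promoter of the 15 cholesterol genes with a window held the sterol element TCACNCCAC, that of Hmgcs1, against 1.13% of all windows. It is printed as the one match of this list, from chr13:119690184-119690252 on the plus strand, with the element in capitals beginning 137 bases before the start.
Hmgcs1: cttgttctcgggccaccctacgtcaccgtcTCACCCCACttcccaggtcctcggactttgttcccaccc

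Fatty acid synthesis genes rose alongside, 12 of 15 with 0 lower (median log2 fold change 1.53). Scd1, a desaturase that makes monounsaturated fatty acids, was nearly unread at Day0, with 0.29 and 0.823 CPM, and reached 49.4, 38.5 and 33.6 CPM at Day2 (log2 fold change 6.09, SE 0.51, edgeR adjusted p = 0.000149). Its paralog Scd2 went from 220 and 269 CPM to 1180, 1070 and 950 CPM (log2 fold change 2.12, SE 0.16, edgeR adjusted p = 0.000105). Acly, which supplies cytosolic acetyl-CoA, rose by 1.8 on the log2 scale, and Fasn, the fatty acid synthase, by 1.53. Acaca, which encodes the carboxylase that commits acetyl-CoA to this pathway, was at 58.1 and 36 CPM at Day0 and at 45, 35.9 and 23.4 CPM at Day2 and did not pass the test (edgeR adjusted p = 0.279). The rise thus covered the supply, synthase and desaturase steps, with no call at the carboxylase. Scd1 and Fasn had log2 fold changes of 7.13 and 2.25 without Day0_WT replicate 2.

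Glycolysis was the other metabolic group in which nearly every member rose: 18 of 20 genes of glycolysis and of glucose and lactate transport, with 0 lower and a median log2 fold change of 1.98. The summed level went from 4270 and 6520 CPM to 22200, 22800 and 25900 CPM. Slc2a1, the glucose transporter GLUT1, was at 10.5 and 33.5 CPM at Day0 and at 188, 177 and 216 CPM at Day2 (log2 fold change 3.13, SE 0.41, edgeR adjusted p = 0.00112). Pfkl, a phosphofructokinase, increased from 313 and 285 CPM to 949, 864 and 995 CPM (log2 fold change 1.64, SE 0.13, edgeR adjusted p = 0.000105). Eno1, enolase, increased from 341 and 606 CPM to 3120, 3160 and 3660 CPM (log2 fold change 2.81, SE 0.23, edgeR adjusted p = 0.000149). The groups did not overlap at any of these steps. Ldha, which makes lactate from pyruvate, rose from 638 and 945 CPM to 3550, 4020 and 4250 CPM (log2 fold change 2.32, SE 0.19, edgeR adjusted p = 0.000149). Slc16a3, which encodes the lactate exporter MCT4, was at 7.3 and 11.7 CPM at Day0 and at 346, 318 and 373 CPM at Day2. That was the largest log2 fold change of the list, 5.17 (SE 0.24, edgeR adjusted p = 7.6e-06). Pfkm and Pfkfb3 were the members that did not pass, and the call of Hk2 was lost when any 1 of the Day2_WT libraries was left out. Other targets of the hypoxia-inducible factors showed 9 rises and 1 fall in 16 (median log2 fold change 1.36). Bnip3, a mitophagy receptor, rose from 35.4 and 19.5 CPM to 246, 214 and 281 CPM (log2 fold change 3.17, SE 0.27, edgeR adjusted p = 0.000169). Vegfa rose by 2.98 and Egln3, a prolyl hydroxylase of HIF, by 2.99 on the log2 scale. Egln1, the main hydroxylase of HIF, fell from 37.9 and 63.3 CPM to 16.8, 16.6 and 20.1 CPM (log2 fold change -1.51, SE 0.3, edgeR adjusted p = 0.007). Car9 and Adm, well-known hypoxia genes, did not pass the test. The log2 fold change of Slc2a1 was 2.5 without Day0_WT replicate 1 and 4.22 without Day0_WT replicate 2, and that of Vegfa was 3.9 without the latter.

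The hypoxia response core ACGTG was held by 11 of 19 glycolysis windows and 9 of 14 of the other hypoxia list, against 24.6% of all windows. Among the other lists with windows, the share ran from 0% (as in monocyte and macrophage genes) to 50% (G1 regulators and tRNA synthetases). The windows that held it include those of Pfkm, Pfkfb3, Ddit4, P4ha2 and Car9, which did not pass the test, and of Egln1, which fell. Slc16a3 and Pgk1 are shown as examples that rose. Each holds the core more than once, as do others such as Ldha and Ankrd37. The stretches lie at chr11:120949010-120949066 and chrX:106186920-106186984, both on the plus strand.
Slc16a3: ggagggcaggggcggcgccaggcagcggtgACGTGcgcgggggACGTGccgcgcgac
Pgk1: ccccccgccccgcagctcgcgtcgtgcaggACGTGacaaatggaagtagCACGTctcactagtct
The matches begin 27 and 14 bases before the start in Slc16a3 and 150 and 131 in Pgk1. Pgk1, phosphoglycerate kinase, was at 59.2 and 147 CPM at Day0 and at 712, 734 and 788 CPM at Day2 (log2 fold change 2.85, SE 0.33, edgeR adjusted p = 0.000619), with a log2 fold change of 3.66 without Day0_WT replicate 2.

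**Figure D2:**
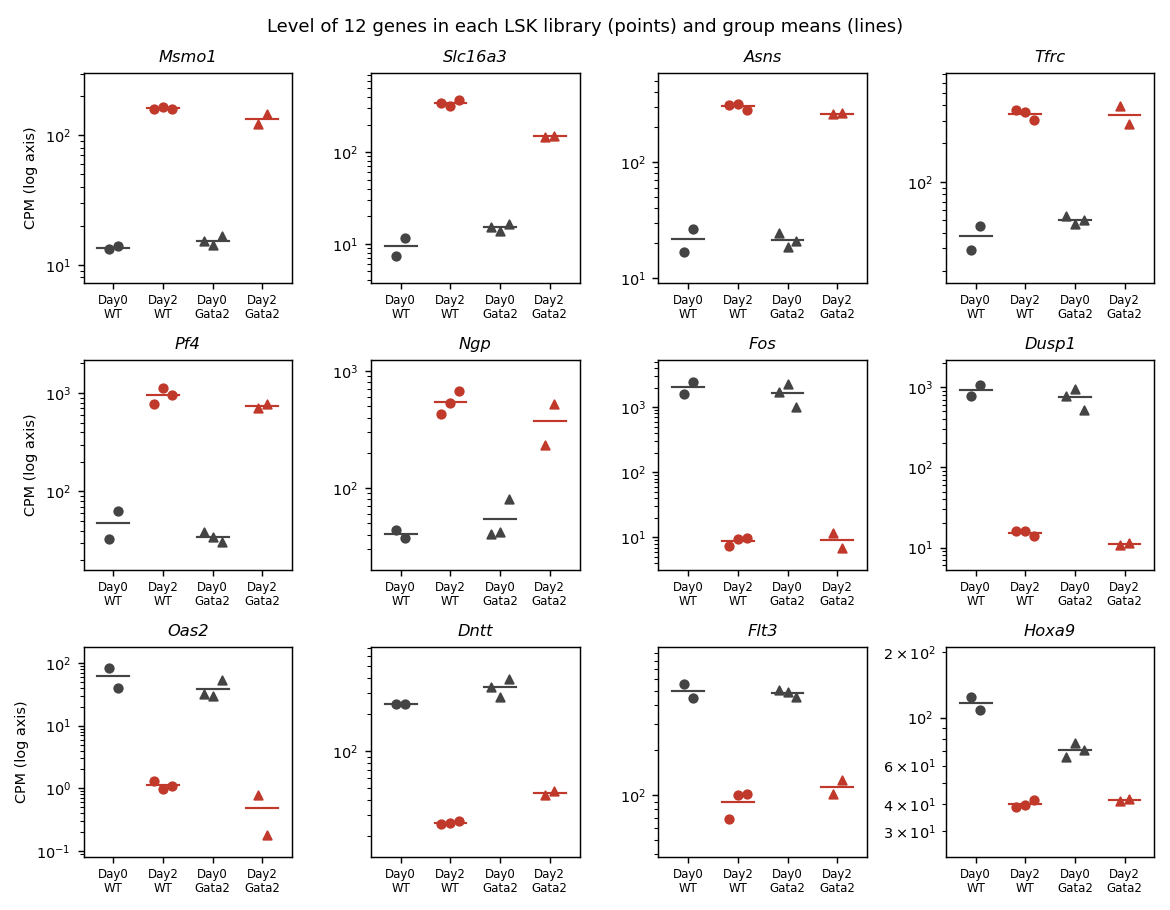
Level of 12 genes in CPM (log scale, vertical axis) in each LSK library at Day0 and Day2 (horizontal axis), with circles for WT, triangles for Gata2-labelled libraries and lines for the group means. In WT, Msmo1, Slc16a3, Asns, Tfrc, Pf4 and Ngp lie higher at Day2, and Fos, Dusp1, Oas2, Dntt, Flt3 and Hoxa9 lie lower, with no overlap between the WT groups in any panel.

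Amino acid supply genes under ATF4, the factor translated when amino acids or protein folding fail, formed a further rising group. Of 21 members, 13 rose and 1 fell (median log2 fold change 0.82). Asns, asparagine synthetase, was at 16.9 and 26.3 CPM at Day0 and at 311, 315 and 280 CPM at Day2 (log2 fold change 3.8, SE 0.22, edgeR adjusted p = 3.13e-05). Psat1, an enzyme of serine synthesis, rose from 51.5 and 105 CPM to 390, 408 and 409 CPM (log2 fold change 2.36, SE 0.26, edgeR adjusted p = 0.000536). Slc7a5, the importer of large neutral amino acids, rose from 72.3 and 116 CPM to 440, 394 and 366 CPM (log2 fold change 2.09, SE 0.21, edgeR adjusted p = 0.000328). The same direction held in the stress effectors Chac1, which breaks down glutathione, and Trib3, a pseudokinase. Chac1 was at 0 and 0.412 CPM at Day0 and at 20, 22.3 and 18.7 CPM at Day2 (log2 fold change 6.36, SE 0.84, edgeR adjusted p = 0.00114). Trib3 was at 1.11 and 5.41 CPM at Day0 and at 61.7, 57.4 and 62.9 CPM at Day2 (log2 fold change 4.18, SE 0.56, edgeR adjusted p = 0.00124). Atf4 itself was at 210 and 242 CPM at Day0 and at 270, 301 and 310 CPM at Day2 and did not pass the test (log2 fold change 0.38, SE 0.16, edgeR adjusted p = 0.106). Ddit3, which encodes the apoptotic factor CHOP, did not pass either (edgeR adjusted p = 0.112), and Cebpb fell by 2.28 on the log2 scale. Aminoacyl tRNA synthetases, which charge tRNAs for translation, rose in 17 of 18 cases with 0 lower (median log2 fold change 1.2). Nars, for asparagine, went from 107 and 147 CPM to 369, 409 and 395 CPM (log2 fold change 1.62, SE 0.16, edgeR adjusted p = 0.000332). Qars, for glutamine, was the member that did not pass. Leaving out Day0_WT replicate 1 gave log2 fold changes of 5.59 for Chac1 and 3.46 for Trib3, and leaving out Day0_WT replicate 2 gave 2.98 for Psat1 and 5.78 for Trib3 and left Chac1 with no Day0 count.

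The ATF4 element TGATGNAAN lay in 6 of 20 windows of the ATF4 list and 5 of 10 of the synthetase list, against 2.35% of all windows. The windows of the ATF4 list that held it include those of Atf3 and Nupr1, which did not pass the test. Examples that rose are printed from both lists, from chr2:119351018-119351086 (plus strand) for Chac1, chr6:7693210-7693262 (minus) for Asns, chr3:50443641-50443709 (minus) for Slc7a11, chr8:111033699-111033767 (plus) for Aars, chr6:55037940-55038000 (plus) for Gars and chr15:11399659-11399704 (minus) for Tars.
Chac1: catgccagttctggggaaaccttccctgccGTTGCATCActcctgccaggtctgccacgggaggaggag
Asns: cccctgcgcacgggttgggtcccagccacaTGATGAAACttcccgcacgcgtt
Slc7a11: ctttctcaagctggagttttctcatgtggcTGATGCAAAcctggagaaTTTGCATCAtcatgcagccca
Aars: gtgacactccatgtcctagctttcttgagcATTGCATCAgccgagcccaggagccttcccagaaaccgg
Gars: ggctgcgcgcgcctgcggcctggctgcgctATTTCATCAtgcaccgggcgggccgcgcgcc
Tars: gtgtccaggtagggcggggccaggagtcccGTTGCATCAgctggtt
Slc7a11, which imports cystine, holds the element on both strands. Its level was 0.193 and 1.18 CPM at Day0 and 18.2, 14.7 and 7.71 CPM at Day2 (log2 fold change 4.23, SE 0.73, edgeR adjusted p = 0.00377), and its log2 fold change was 3.49 without Day0_WT replicate 1 and 6.13 without Day0_WT replicate 2. Of the synthetases shown, Gars rose by 1.9, Aars by 1.54 and Tars by 1.06 on the log2 scale.

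Protein folding in the endoplasmic reticulum followed the same direction, with 17 of 20 chaperones and unfolded protein response genes higher and 0 lower (median log2 fold change 0.91). Hsp90b1, the chaperone GRP94, was at 273 and 310 CPM at Day0 and at 648, 689 and 711 CPM at Day2 (log2 fold change 1.23, SE 0.14, edgeR adjusted p = 0.000527). Edem1, which sends misfolded proteins for degradation, went from 56.2 and 77.4 CPM to 245, 207 and 201 CPM (log2 fold change 1.7, SE 0.21, edgeR adjusted p = 0.000887). Dnajb9, a frequently used readout of the IRE1 and XBP1 branch, was at 28.6 and 24 CPM at Day0 and at 20.5, 20.2 and 21.4 CPM at Day2 and did not pass the test. Cytosolic chaperones split by kind: 8 of 18 rose and 3 fell. The chaperonin gene Tcp1 rose from 177 and 212 CPM to 470, 503 and 449 CPM (log2 fold change 1.29, SE 0.13, edgeR adjusted p = 0.000332), and Cct2, Cct3, Cct5 and Cct8 rose too. The stress-induced Hspa1b, an HSP70, fell from 45.1 and 56.7 CPM to 2.09, 2.23 and 2.96 CPM (log2 fold change -4.39, SE 0.35, edgeR adjusted p = 0.000131). Hspa1a, its near-identical copy, fell by 4.71 (by 6.89 without Day2_WT replicate 3) but was not called without Day2_WT replicate 1, and Dnajb1 fell by 0.96 on the log2 scale. The constitutive Hspa8, Hsp90aa1 and Hsp90ab1 did not pass the test. Proteasome subunits showed 14 rises in 18 and 0 falls (median log2 fold change 0.74), with Psmd1, from 140 and 175 CPM to 357, 339 and 325 CPM, the member of lowest p (edgeR adjusted p = 0.000646). That count was 8 without Day2_WT replicate 2 and 8 without Day2_WT replicate 3.

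Targets of NRF2, the sensor of oxidative stress, together with heme oxygenase and metallothioneins, rose in 15 of 18 cases with 0 lower (median log2 fold change 1.19). Mt1, a metal-binding metallothionein, was at 31.6 and 32.5 CPM at Day0 and at 172, 174 and 220 CPM at Day2 (log2 fold change 2.56, SE 0.23, edgeR adjusted p = 0.000184). G6pdx, the entry enzyme of the pentose phosphate pathway, rose from 76.8 and 90.9 CPM to 222, 260 and 263 CPM (log2 fold change 1.57, SE 0.17, edgeR adjusted p = 0.000468). Hmox1, heme oxygenase, rose from 51.1 and 18.2 CPM to 165, 130 and 139 CPM (log2 fold change 2.06, SE 0.51, edgeR adjusted p = 0.0165), with a log2 fold change of 2.96 without Day0_WT replicate 1. Nfe2l2, which encodes NRF2, did not pass the test (edgeR adjusted p = 0.441). Of 12 iron genes 7 rose and 2 fell. Tfrc, the transferrin receptor, was at 29.4 and 45.4 CPM at Day0 and at 367, 353 and 308 CPM at Day2 (log2 fold change 3.19, SE 0.23, edgeR adjusted p = 9.97e-05). Ftl1, the ferritin light chain that stores iron, increased from 871 and 1110 CPM to 1830, 2090 and 2510 CPM (log2 fold change 1.11, SE 0.19, edgeR adjusted p = 0.00359). Uptake and storage genes were thus both higher, while Slc40a1, the exporter, did not pass the test. The count of rises in the iron list was 3 without Day2_WT replicate 3.

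Targets of p53 and regulators of apoptosis moved in both directions, 9 higher and 5 lower of 24 (median log2 fold change 0.5). Ccng1, a sensitive p53 target, rose from 47.5 and 57.3 CPM to 157, 143 and 149 CPM (log2 fold change 1.51, SE 0.16, edgeR adjusted p = 0.000425). Perp, a membrane protein of p53-dependent death, rose from 1.35 and 2.37 CPM to 19, 19.1 and 21.9 CPM (log2 fold change 3.41, SE 0.35, edgeR adjusted p = 0.000382). The survival gene Bcl2l1 rose by 1.22, and Mcl1, another survival gene, fell from 458 and 566 CPM to 306, 304 and 313 CPM (log2 fold change -0.73, SE 0.13, edgeR adjusted p = 0.0044). Bax, Fas, Zmat3 and Aen did not pass the test. The number of falls in this list was between 2, without Day2_WT replicate 3, and 7, without Day0_WT replicate 2. Of 18 homologous recombination and Fanconi repair genes 3 rose and 0 fell, beside 11.9% and 17.9% of all genes. The number of rises was 1 without any 1 of the Day2_WT libraries. Fancb, a subunit of the Fanconi core complex, was the member of lowest p and rose from 3.77 and 6.58 CPM to 18, 21.2 and 19.8 CPM (log2 fold change 1.92, SE 0.32, edgeR adjusted p = 0.00307).

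Genes of the late phases of the cell cycle were higher at Day2. Of 23 genes of G2 and mitosis 16 rose and 0 fell, with a median log2 fold change of 1.01. Ccnb1, the mitotic cyclin B1, was at 57.2 and 115 CPM at Day0 and at 322, 333 and 300 CPM at Day2 (log2 fold change 1.88, SE 0.28, edgeR adjusted p = 0.00197), or 2.49 without Day0_WT replicate 2. Cdc20, which activates the anaphase-promoting complex, rose from 148 and 197 CPM to 338, 376 and 348 CPM (log2 fold change 1.03, SE 0.15, edgeR adjusted p = 0.00172). Mki67 and Top2a, common proliferation markers, did not pass the test. Mki67 was at 442 and 366 CPM at Day0 and at 378, 294 and 243 CPM at Day2 (log2 fold change -0.4, SE 0.22, edgeR adjusted p = 0.199). Replication genes showed 11 rises and 0 falls in 24 (median log2 fold change 0.5). Rrm2, a subunit of ribonucleotide reductase, rose from 109 and 135 CPM to 332, 327 and 296 CPM (log2 fold change 1.38, SE 0.15, edgeR adjusted p = 0.000468). Mcm4, a subunit of the replicative helicase, rose from 172 and 201 CPM to 374, 374 and 364 CPM (log2 fold change 0.99, SE 0.12, edgeR adjusted p = 0.00083). These counts shrank when a Day2_WT library was left out. For G2 and mitosis 8 rises were left without Day2_WT replicate 2 and 9 without Day2_WT replicate 3. For replication 7, 6 and 5 were left without Day2_WT replicates 1, 2 and 3, and upper quartile scaling gave 7.

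Of 14 G1 regulators 1 was higher and 2 were lower, with 0 to 4 higher and 1 to 3 lower in the fits that left out a WT library. These G1 counts stand beside 11.9% higher and 17.9% lower among all genes. Ccne2, an S phase entry cyclin, fell from 126 and 174 CPM to 49.9, 60 and 50.8 CPM (log2 fold change -1.49, SE 0.23, edgeR adjusted p = 0.00236). Myc was at 733 and 768 CPM at Day0 and at 818, 702 and 710 CPM at Day2, with the groups overlapping (log2 fold change -0.01, SE 0.17, edgeR adjusted p = 0.959). Cdk6, a kinase of G1, was called lower by 0.76 on the log2 scale, but not without Day2_WT replicate 2, Day2_WT replicate 3 or Day0_WT replicate 1. Of 18 histone genes 16 were tested, with 4 lower and 1 higher, Hist1h4d, which was not called without Day2_WT replicate 1, Day2_WT replicate 3 or Day0_WT replicate 1. Hist1h2bg fell from 22.6 and 21.4 CPM to 1.31, 1.24 and 1.38 CPM (log2 fold change -4.07, SE 0.3, edgeR adjusted p = 0.0001). Most replication-dependent histone messages lack a poly(A) tail, and near-identical copies may share reads, so these values are uncertain.

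The E2F motif, GCGGGAAA or GCGCCAAA, was found in 8 of 20 windows of the replication list, against 2.85% of all windows. The windows that held it include those of Mcm7, Cdt1, Pola1 and Pold1, which did not pass the test. A helicase subunit and a loading factor are printed as examples, from chr8:75109330-75109397 for Mcm5 and chr11:98907983-98908050 for Cdc6, both on the plus strand, with the motif in capitals.
Mcm5: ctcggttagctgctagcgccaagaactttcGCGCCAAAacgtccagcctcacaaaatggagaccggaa
Cdc6: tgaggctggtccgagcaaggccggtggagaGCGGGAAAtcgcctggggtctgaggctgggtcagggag
Cdc6 rose from 47.9 and 67.5 CPM to 108, 96.1 and 101 CPM (log2 fold change 0.82, SE 0.17, edgeR adjusted p = 0.00949). Mcm5 rose by 0.58, a call that was lost without Day2_WT replicate 3 or Day0_WT replicate 1.

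Ribosome biogenesis and MYC target genes rose in 16 of 24 cases with 0 lower (median log2 fold change 0.64). Npm1, a nucleolar chaperone, was at 580 and 597 CPM at Day0 and at 1100, 1280 and 1200 CPM at Day2 (log2 fold change 1.02, SE 0.15, edgeR adjusted p = 0.00192). Odc1, which makes polyamines and is a classical MYC target, increased from 143 and 246 CPM to 437, 456 and 411 CPM (log2 fold change 1.16, SE 0.2, edgeR adjusted p = 0.0042). Cytosolic ribosomal proteins moved little, with 4 of 23 higher and 0 lower (median log2 fold change 0.34). That share, beside 11.9% of all genes, rested on the libraries. It was 1 without Day2_WT replicate 2, Day2_WT replicate 3 or Day0_WT replicate 1, 14 without Day0_WT replicate 2, and 1 under upper quartile scaling. Oxidative phosphorylation subunits rose in 14 of 22 cases with 0 lower (median log2 fold change 0.74). Atp5b, the catalytic subunit of ATP synthase, went from 765 and 1230 CPM to 2010, 2240 and 2290 CPM (log2 fold change 1.13, SE 0.19, edgeR adjusted p = 0.00314). The biogenesis count was 8 without Day2_WT replicate 2 and 10 without Day2_WT replicate 3, and the oxidative phosphorylation count was 7 without either of them and 9 without Day0_WT replicate 1.

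**Figure D3:**
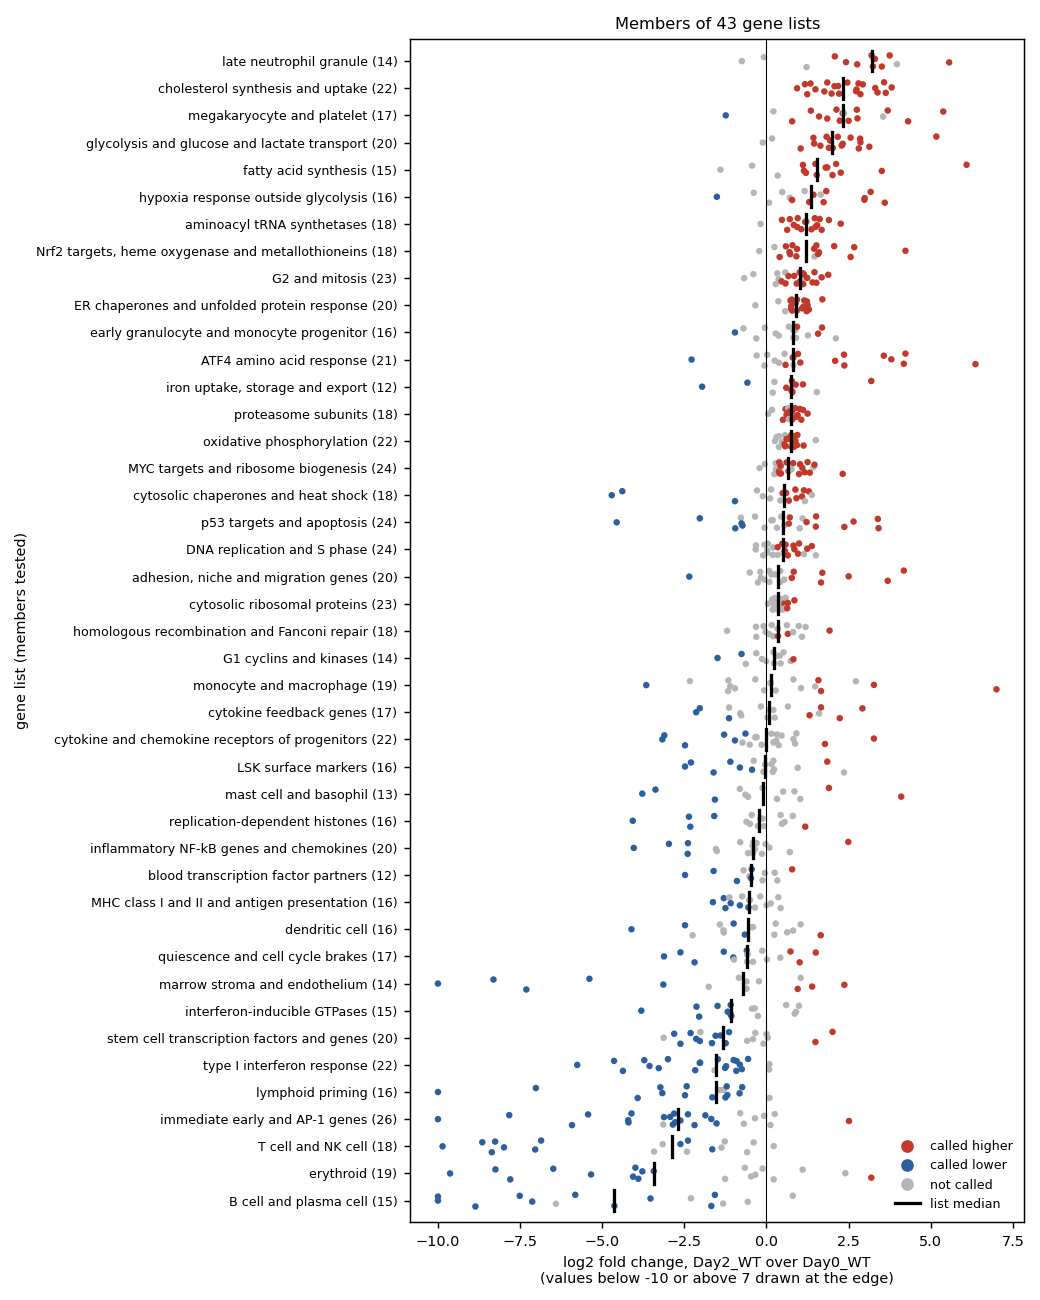
Log2 fold change at Day2 over Day0 in WT (horizontal axis) of each tested member of 43 gene lists (rows), with coloured points for called genes, grey points for the others and a black bar at each list's median. Cholesterol synthesis (median 2.34), glycolysis (1.98) and late neutrophil granule genes (3.22) lie to the right, and immediate early (-2.7), type I interferon (-1.53) and lymphoid priming genes (-1.54) to the left.

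Receptors that progenitors use to sense cytokines gave 2 rises (5 without Day0_WT replicate 2) and 6 falls among 22. Ccr2, the chemokine receptor of monocytes and their precursors, was at 34.1 and 20.4 CPM at Day0 and at 259, 248 and 278 CPM at Day2 (log2 fold change 3.27, SE 0.38, edgeR adjusted p = 0.000629). Csf2rb, the common chain of the IL-3 and GM-CSF receptors, rose from 52.5 and 81.6 CPM to 243, 220 and 229 CPM (log2 fold change 1.78, SE 0.23, edgeR adjusted p = 0.000948). Csf3r, the receptor for G-CSF, fell from 339 and 249 CPM to 142, 142 and 170 CPM (log2 fold change -0.96, SE 0.15, edgeR adjusted p = 0.00272). The ligand-specific chain Csf2ra fell by 1.29 on the log2 scale, opposite to its shared partner chain. Of 17 cytokine feedback genes 4 rose and 3 fell, beside 11.9% and 17.9% of all genes. Pim2, a survival kinase induced by STAT5, rose from 43.8 and 41.4 CPM to 199, 217 and 184 CPM (log2 fold change 2.23, SE 0.2, edgeR adjusted p = 0.000222). Spry1, a brake on receptor tyrosine kinases, fell from 39.7 and 44.7 CPM to 9.98, 9.82 and 8.87 CPM (log2 fold change -2.14, SE 0.22, edgeR adjusted p = 0.000397). The rises in the feedback list numbered 2 without Day2_WT replicate 3 or Day0_WT replicate 1 and 8 without Day0_WT replicate 2.

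Adhesion and niche genes showed 7 rises and 1 fall in 20. Itga6, an integrin that binds laminin, was at 83.2 and 81.8 CPM at Day0 and at 307, 256 and 243 CPM at Day2 (log2 fold change 1.7, SE 0.15, edgeR adjusted p = 0.00016). Itgb3, the partner of CD41 in the platelet fibrinogen receptor, rose from 8.17 and 25.6 CPM to 327, 316 and 284 CPM (log2 fold change 4.18, SE 0.56, edgeR adjusted p = 0.00124). Cxcr4, the receptor that holds stem cells in marrow, was at 23 and 29.2 CPM at Day0 and at 18.5, 15.9 and 20.8 CPM at Day2 and did not pass the test (edgeR adjusted p = 0.17). The number of rises was 4 without Day2_WT replicate 2 or 3. Itgb3 had a log2 fold change of 3.56 without Day0_WT replicate 1 and 5.25 without Day0_WT replicate 2.

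Genes of the megakaryocyte and platelet lineage rose together: 13 of 17 were higher and 1 was lower (median log2 fold change 2.32). Their summed level was 771 and 1010 CPM at Day0 and 3670, 4020 and 3390 CPM at Day2. Pf4, a chemokine stored in platelet granules, was at 33.1 and 63.4 CPM at Day0 and at 777, 1130 and 966 CPM at Day2 (log2 fold change 4.31, SE 0.31, edgeR adjusted p = 9.42e-05). Ppbp, another platelet chemokine, rose from 8.37 and 1.37 CPM to 179, 220 and 184 CPM (log2 fold change 5.38, SE 0.66, edgeR adjusted p = 0.00079). Every Day2 library lay above both Day0 libraries in Pf4 and Ppbp. The von Willebrand receptor genes Gp1bb, Gp5 and Gp9 rose by 2.23, 2.32 and 1.35 on the log2 scale. Selp, which encodes P-selectin, was not called when any 1 of the Day2_WT libraries was left out. The log2 fold change of Ppbp was 7.11 without Day0_WT replicate 1 and 4.55 without Day0_WT replicate 2, and that of Gp5 was 3.17 without the latter.

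Late neutrophil granule genes rose in 10 of 14 cases with 0 lower (median log2 fold change 3.22). Ngp, a granule protein, was at 44.1 and 37.2 CPM at Day0 and at 426, 536 and 671 CPM at Day2 (log2 fold change 3.75, SE 0.46, edgeR adjusted p = 0.00079). S100a9, a subunit of calprotectin, rose from 9.28 and 45.4 CPM to 166, 362 and 414 CPM (log2 fold change 3.51, SE 0.66, edgeR adjusted p = 0.00547). Ly6g, the surface protein of mature neutrophils, ranged from 0 to 0.529 CPM in the 5 WT libraries. Earlier granulocyte and monocyte progenitor genes gave 3 rises and 1 fall in 16, beside 11.9% and 17.9% of all genes. Mpo, the myeloperoxidase of progenitors, was at 1290 and 2910 CPM at Day0 and at 3520, 3780 and 4470 CPM at Day2 and did not pass the test (edgeR adjusted p = 0.0625). Cebpa, the master factor of granulocytes, rose from 18.1 and 56.2 CPM to 116, 100 and 145 CPM (log2 fold change 1.69, SE 0.43, edgeR adjusted p = 0.0187), a call lost without Day2_WT replicate 3. For this list the rises numbered 2 without Day2_WT replicate 3 and 9 without Day0_WT replicate 2. Monocyte and macrophage genes gave 4 rises and 1 fall among 19 tested of 20, with 2 rises left without Day2_WT replicate 2, Day2_WT replicate 3 or Day0_WT replicate 1 and 6 falls without Day0_WT replicate 2. The rise of Gpnmb is described with the largest changes, and C1qa, a complement gene of resident macrophages, fell from 7.45 and 5.66 CPM to 0.19, 0.0608 and 1.3 CPM (edgeR adjusted p = 0.0216), a call lost without Day2_WT replicate 1. Leaving out Day0_WT replicate 1 gave log2 fold changes of 2.76 for S100a9 and 1.07 for Cebpa and a granule list median of 2.54, whereas without Day0_WT replicate 2 these were 5.08, 2.74 and 4.16.

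Lymphoid priming genes, which mark the first steps of multipotent cells toward lymphocytes, fell in 13 of 16 cases with 0 higher (median log2 fold change -1.54). The fall was in the same direction and of similar count in each fit that left out a WT library, 11 to 12 members. Dntt, the terminal transferase of early lymphoid cells, was at 244 and 244 CPM at Day0 and at 25.1, 25.9 and 26.9 CPM at Day2 (log2 fold change -3.23, SE 0.15, edgeR adjusted p = 7.6e-06). Satb1, a chromatin organiser that promotes lymphoid fate, fell from 333 and 169 CPM to 48.1, 44.5 and 46.8 CPM (log2 fold change -2.43, SE 0.24, edgeR adjusted p = 0.000344). Cd27, a receptor of multipotent progenitors and lymphocytes, fell from 132 and 168 CPM to 58.8, 65 and 65.1 CPM (log2 fold change -1.25, SE 0.14, edgeR adjusted p = 0.000554). Ikzf1, Notch1 and Il7r, a transcription factor and receptors of lymphoid development, fell by 1.21, 1.19 and 3.17 on the log2 scale. Il7r was at a log2 fold change of -1.49 without Day0_WT replicate 1 and -3.93 without Day0_WT replicate 2.

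Genes of committed B cells and plasma cells fell in 10 of 15 cases with 0 higher. The median log2 fold change was -4.63, or -3.53 with members that had no Day2 count set at the bound of 3 counts per library, and -3.74 without Day0_WT replicate 1. Igkc, the kappa light chain, was at 480 and 785 CPM at Day0 and at 0, 0.203 and 3.89 CPM at Day2 (log2 fold change -8.86, SE 1.4, edgeR adjusted p = 0.00261), or -12.64 without Day2_WT replicate 3. Ebf1, the founding factor of the B lineage, had 31.4 and 2.12 CPM at Day0 and no count at Day2, at least 283-fold lower (edgeR adjusted p = 0.00505), a bound that was 35.8-fold without Day0_WT replicate 1. Pax5, which fixes B cell identity, had 10.4 and 1.51 CPM and no count, at least 100-fold lower (edgeR adjusted p = 0.00323), or 25.5-fold without that library. For T cell and NK cell genes 10 of 18 fell and 0 rose (median log2 fold change -2.89, or -2.52 at the bound). That median was -0.7 without Day0_WT replicate 2 and -3.57 without Day0_WT replicate 1. Cd3e, a chain of the T cell receptor complex, was at 2.18 and 2.51 CPM at Day0 with no count at Day2, at least 39.5-fold lower (edgeR adjusted p = 0.0011). The number of T and NK falls was 4 without Day2_WT replicate 1 or 3 and 13 without Day0_WT replicate 1, and immunoglobulin segments may share reads.

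Erythroid genes fell in 10 of 19 cases and rose in 1, Tfrc (median log2 fold change -3.43), with 3 rises and a median of -2.59 without Day0_WT replicate 2. The summed level of the list was 1190 and 1370 CPM at Day0 and 1290, 1300 and 1190 CPM at Day2, so the sum did not fall. Car1, a carbonic anhydrase of early erythroid cells, was at 78.5 and 126 CPM at Day0 and at 0.514, 0.263 and 0.22 CPM at Day2 (log2 fold change -8.25, SE 0.68, edgeR adjusted p = 0.000144). Klf1, the erythroid master factor, fell from 15.8 and 40.3 CPM to 3.22, 2.55 and 2.04 CPM (log2 fold change -3.43, SE 0.47, edgeR adjusted p = 0.00128), or -2.59 without Day0_WT replicate 2. Gata1 was at 63.3 and 44.5 CPM at Day0 and at 49.9, 59.4 and 39.4 CPM at Day2, and neither Gata1 nor Epor, the erythropoietin receptor, passed the test. Reads of the globin copies may be shared.

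Markers of mast cells, basophils, stroma and endothelium were called in both directions. Prss34, a basophil protease, fell from 181 and 376 CPM to 7.63, 31.1 and 22.1 CPM (log2 fold change -3.78, SE 0.59, edgeR adjusted p = 0.00245). Gzmb, a granzyme also counted with the mast cell and basophil list, rose from 0.387 and 4.23 CPM to 40.2, 45.3 and 38.6 CPM (log2 fold change 4.1, SE 0.79, edgeR adjusted p = 0.00603), and Cpa3, the mast cell carboxypeptidase, did not pass the test (edgeR adjusted p = 0.11). In that list 2 rose (6 without Day0_WT replicate 2) and 3 fell among 13 tested of 16, beside 11.9% and 17.9% of all genes. Cxcl12, the niche chemokine made by stroma, was at 33.9 and 11.9 CPM at Day0 and at 0, 0 and 0.0399 CPM at Day2 (edgeR adjusted p = 0.000152). Emcn, an endothelial sialomucin also carried by stem cells, fell from 41.4 and 13 CPM to 3.18, 3.36 and 2.68 CPM (log2 fold change -3.14, SE 0.44, edgeR adjusted p = 0.0014). Pecam1, shared by endothelium and blood cells, rose by 0.95 on the log2 scale. Stroma and endothelium genes gave 3 rises and 5 falls among 14 tested of 18, counts that were 1 and 3 without any 1 of the Day2_WT libraries. Dendritic cell genes gave 1 rise and 4 falls of 16, and 0 to 3 rises and 2 to 4 falls when a WT library was left out. The log2 fold changes of Gzmb and Emcn were 3.26 and -2.11 without Day0_WT replicate 1, and those of Prss34, Gzmb and Emcn were -3.16, 6.74 and -3.74 without Day0_WT replicate 2.

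The largest rises, among called genes with a mean of at least 5 CPM, no overlap and a symbol other than a clone or predicted name, were of several kinds. Serpinb2, an inhibitor of urokinase (chr1, 107511423 to 107535478, plus strand), was at 0 and 0.098 CPM at Day0 and at 63.3, 87.5 and 81.2 CPM at Day2 (log2 fold change 10.12, SE 0.88, edgeR adjusted p = 0.000176). Gpnmb, a glycoprotein of macrophages and lysosomal stress, was at 0.145 and 0.0784 CPM at Day0 and at 21.5, 24.7 and 36.1 CPM at Day2 (log2 fold change 8.03, SE 0.75, edgeR adjusted p = 0.000258). Scin, the actin-severing protein scinderin, was at 0 and 5.11 CPM at Day0 and at 199, 210 and 230 CPM at Day2 (log2 fold change 6.24, SE 1.01, edgeR adjusted p = 0.00287). Its log2 fold change was 5.35 without Day0_WT replicate 1, and without Day0_WT replicate 2 the Day0 library left had no count. Slc7a3, a cationic amino acid transporter, was at 0 and 0.0392 CPM at Day0 and at 14.8, 12.8 and 9.09 CPM at Day2 (edgeR adjusted p = 0.00124). Thbs1, thrombospondin, was at 0.484 and 16.9 CPM at Day0 and at 857, 742 and 782 CPM at Day2. Its log2 fold change was 6.45 with an edgeR adjusted p of 0.0361. Without Day0_WT replicate 1 it was 5.52 and the adjusted p became 0.124, and without Day0_WT replicate 2 it was 10.69. Its call was also lost when any 1 of the Day2_WT libraries was left out. Col18a1, Ly6g6f, Mmp8, Cth, Il1a, Chac1 and Scd1 complete the 12 largest rises. Among them, Chac1, Cth and Slc7a3 act in amino acid and glutathione metabolism and Scd1 in lipid synthesis.

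The largest falls, chosen in the same way, were nearly all genes with no Day2 count. Igha, the heavy chain constant region of IgA, had 708 and 1010 CPM at Day0 and no count at Day2, at least 14500-fold lower (edgeR adjusted p = 0.000215). The ribosomal RNA gene n-R5-8s1 was at least 6010-fold lower, or 3480-fold without Day0_WT replicate 1. Gprin1, better known from neurons, had 165 and 266 CPM and no count, at least 3630-fold lower (edgeR adjusted p = 2.67e-05). Pappa, a protease that frees insulin-like growth factor, had 74.1 and 74.8 CPM and no count, at least 1260-fold lower. Vsig8, Ankrd60, Wnt7b, Cd300e, Gria2, Dmp1 and the Ebf1 gene described above followed, at least 275-fold lower in each case. Without Day0_WT replicate 1 the bounds of Cd300e, Gria2 and Ebf1 were 117-, 52.3- and 35.8-fold. The choice left out genes with predicted names, of which Gm14236 (at least 7540-fold lower) and Gm24601 (at least 2820-fold lower), also without a Day2 count, lay above Pappa. Xist, which is read in female cells, was also among the largest falls, at 0.919 and 374 CPM at Day0 and 0.0381, 0.0203 and 0 CPM at Day2, read in the female Day0_WT library above all, and its call was lost without that library or without any 1 of the Day2_WT libraries.

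The Gata2-labelled libraries gave a change in the same direction for most genes called in WT. Of the genes that rose in WT, 96.6% had a positive log2 fold change in the Gata2-labelled libraries, against 46.2% of all genes, and of those that fell 89.8% had a negative one, against 53.8%. The size was smaller there: the medians were 0.97 in WT and 0.57 in Gata2-labelled libraries for the genes that rose, and -2.63 and -1.09 for those that fell. These medians are of genes chosen for their WT change. The test of the difference between the changes called 0 genes by edgeR (lowest adjusted p = 0.465), with 1984 genes at an unadjusted p under 0.05, 216 called by DESeq2 and 0 by limma voom. Without Day0_WT replicate 2 the edgeR count was 6733. Beside each other, the list medians in WT and in Gata2-labelled libraries were 1.98 and 1.04 for glycolysis, 2.34 and 1.61 for cholesterol synthesis, 1.19 and 0.48 for NRF2 targets, -2.7 and -2.45 for immediate early genes, and -1.53 and -2.09 for type I interferon genes. Over all 43 lists the medians had the same sign in 40, opposite signs in 2 (mast cell and basophil, monocyte and macrophage), and 1 WT median, that of cytokine and chemokine receptors, was 0.

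**Figure D4:**
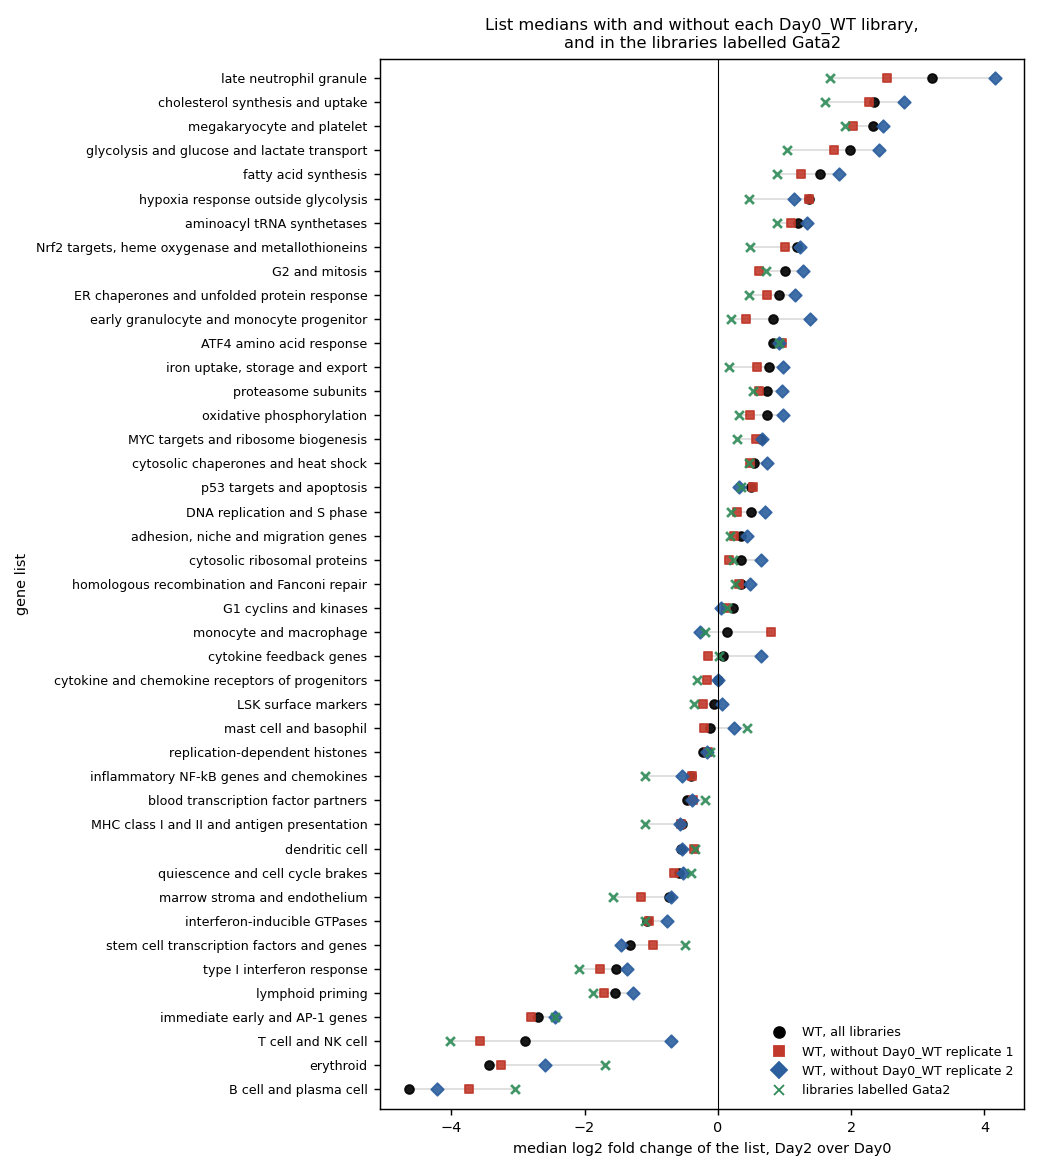
Median log2 fold change at Day2 over Day0 (horizontal axis) of each gene list (rows) in WT with all libraries, in WT without Day0_WT replicate 1 or without replicate 2, and in the Gata2-labelled libraries. The WT medians of cholesterol synthesis are 2.34 with all libraries and 2.26 without Day0_WT replicate 1, and those of late neutrophil granule genes 3.22 and 2.54.

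Promoter windows of the called genes as a whole differed little from those of all genes in most motifs. The hypoxia core was held by 30.6% of windows of genes that rose, 20.5% of those that fell and 24.6% of all. The interferon element was held by 2.65%, 4.29% and 3.15%, the AP-1 motif TGACTCA by 3.98%, 3.02% and 3.73%, and the GATA motif AGATAA by 6.35%, 6.8% and 6.89%. No window of the 22 immediate early genes with one held the AP-1 motif. The SRF search was narrow and matched 9 of all 12435 windows (0.0724%), among them 1 of these 22. With so few matches anywhere, it cannot decide how common SRF sites are in immediate early promoters. The E-box CACGTG, which contains the hypoxia core, was in 5 of 19 ribosome biogenesis windows against 9.58% of all, and the antioxidant element TGACNNNGC in 6 of 15 NRF2 windows against 14.8%. A match is a description of letters and not a bound site.

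**Figure D5:**
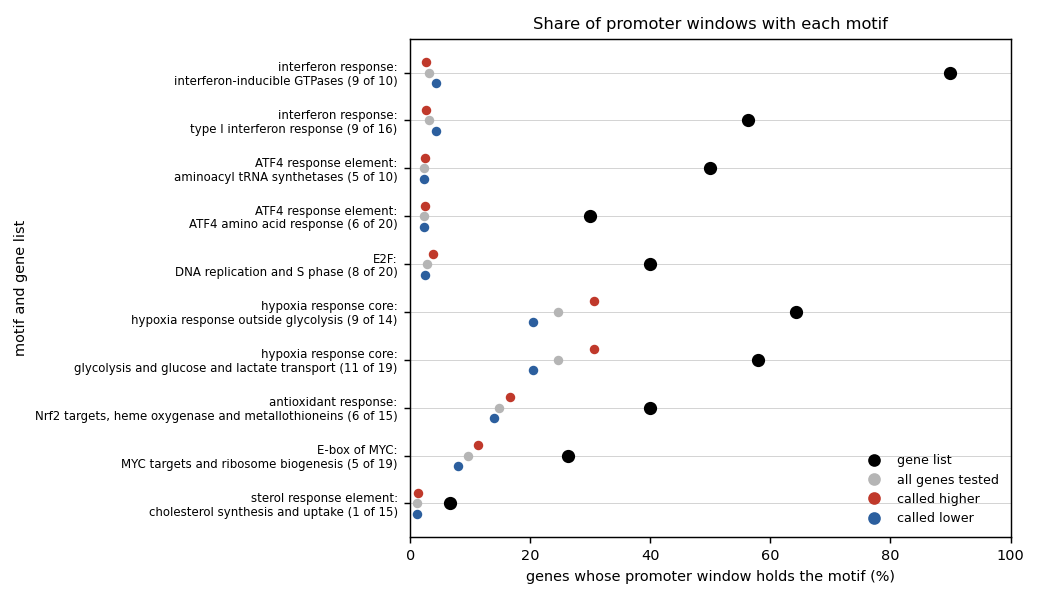
Share of promoter windows holding each motif in percent (horizontal axis) for the genes of matching lists, genes called higher, genes called lower and all genes with a window. The interferon element is in 90.0% of GTPase windows and 56.2% of type I interferon windows against 3.15% of all windows, and the ATF4 element in 5 of 10 synthetase windows against 2.35%.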

How the data were processed

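RNA was extracted from lineage-negative marrow cells with RNeasy Micro, per the labels' protocols, and libraries were made with either TruSeq Stranded mRNA or SMARTer Ultra Low kits. The authors deposited whole-number read counts per Ensembl gene, after Trimmomatic 0.38 and STAR 2.5.2b on mm10, per the submitters' processing notes. For the counting program, its strand setting and its annotation the sources used here give nothing, so overlapping and antisense genes and near-identical copies are uncertain.

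Symbols matched 19065 of the 19162 tested IDs. Counts of 10 LSK libraries in 4 groups (5 of them WT) were fitted with edgeR 4.0.16 (R 4.3.3): TMM scaling, filterByExpr, a robust quasi-likelihood test and Benjamini-Hochberg adjustment over all tested genes at 0.05. Levels are CPM computed from the deposited counts. The SE is the absolute log2 fold change divided by the square root of the F statistic of its quasi-likelihood test. Where every library of a group had no count, the fold is a lower bound set against 3 counts per library. On simulated counts for 19162 genes with this comparison's library sizes, 5 of 100 genes changed 2-fold and 41 of 100 changed 4-fold were recovered when no other gene was changed, and 0 unchanged genes were called. Each gene had the same spread in every simulated library, and none stood apart as Day0_WT replicate 1 did. The simulation therefore cannot show how often such a library gives false calls. In the data, where many genes changed, 1190 rises and 474 falls of 2-fold or less were called.

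Genes were named by rule: the 12 largest rises and falls among called genes with a mean of at least 5 CPM and no overlap between groups, leaving out clone, predicted, mitochondrial and ribosomal pseudogene names, the 6 members of lowest p in each of 43 lists, and all LSK surface markers. Other list members were named after their values were seen. Some genes that the rule names are not reported here, but they are counted in their lists. The members and lists were chosen with earlier results of these data known. List counts are descriptions, to be read beside the 11.9% of all genes called higher and the 17.9% called lower, without a set test. Alternatives were RLE and upper quartile scaling, other low count filters, DESeq2 1.42.0, limma 3.58.1 voom, the WT libraries alone, protein-coding genes alone, a sex term, a replicate block and leaving out each WT library. A fit of 4 WT libraries without Day0_WT replicate 1 was added after seeing the data. Promoter windows were those of RefSeq (GRCm38.p6), which covered 12435 of the tested symbols, searched on both strands.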

Additional observations from a re-analysis of the deposited data

How the results depend on the processing

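Against 2286 higher and 3434 lower genes, limma voom called 424 and 910, and the 5 WT libraries fitted alone 490 and 709. The count of higher genes was 1358 without the low count filter, and that of lower genes was 1288 with 4 WT libraries alone, a setting chosen after seeing the data in which higher genes were 54.9% of those called against 40%. Leaving out 1 WT library at a time gave 1274 to 5771 higher genes, 1917 to 6615 lower genes and 0 to 6733 genes whose change differed from that in the Gata2-labelled libraries. That last count was 0 with all libraries, 216 with DESeq2 and 2 without the low count filter. A replicate block gave 1285 higher and 1462 lower genes. Same-numbered libraries correlated between -0.174 and 0.109 after group means were removed. With so few libraries per group, that check cannot decide whether the numbers pair the samples. Other counts over all genes were within 1.5 times those reported. The causes of these shifts were not tested, nor was the part of the fewer degrees of freedom in fits with fewer libraries.

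With 2 Day0_WT libraries, of which the shallower stood apart, members that did not pass are not shown to be unchanged. Library kit, sex of 1 Day0_WT library and time cannot be fully told apart. Of the 86 counts of list members called higher or lower, 46 moved by over 1.5 times with voom, 43 with the 5 WT libraries alone, 31 without Day0_WT replicate 2 and 3 to 24 in the other settings. Under upper quartile scaling, which moved 9, the rises in the quiescence list went from 3 to 1, those of ribosomal proteins from 4 to 1, and falls in the antigen presentation list from 6 to 10. The differences of Kit, Myc and Nfe2l2, which did not pass the test, changed sign: Kit was at -0.01 under upper quartile scaling and -0.05 with the 5 CPM filter, Myc at 0.10 with a sex term and between -0.13 and 0.03 when a WT library was left out, and Nfe2l2 between -0.09 and 0.66 when one was left out. Of 184 genes named with a test, 54 lost their call with voom, 39 with the 5 WT libraries alone and at most 12 in any other setting.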

Other observations

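Genes outside the protein-coding class fell far more often than they rose: 894 were called lower and 87 higher at Day2. Of 807 antisense genes 22.8% were lower and 1.36% higher, and of 721 genes of the TEC class, gene models still awaiting experimental proof, 29.8% and 0.832%. Of 142 snoRNA genes 27.5% were lower and 0% higher, and of 574 lincRNA genes 20.2% and 2.61%. Protein-coding genes divided into 17.2% lower and 14.9% higher. TEC genes took 0.362 and 0.187% of the counts at Day0 and 0.0314 to 0.0582% at Day2, so their whole class was lower, and the part of depth, kit and repeat-rich reads in this was not tested.

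Among 10885 genes with a mean of at least 5 CPM at Day0, 45 had no count in any Day2_WT library, while 0 genes with at least 5 CPM at Day2 had no count at Day0. Of these 45, 24 were protein-coding and 12 were immunoglobulin genes. In the Gata2-labelled libraries 27 of them reached 5 CPM at Day0 and 26 had no count at Day2. In WT, 19 reached 5 CPM in both Day0 libraries.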
